A study of Mus musculus with 8 samples.

Results

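Expression of 9 genes of iron handling and metal binding was measured in bone marrow-derived macrophages (BMDMs) with and without *Ncoa6*. The genes were picked by name for their roles: the ferritin subunits *Fth1* and *Ftl1*, the transferrin receptor *Tfrc*, the iron regulatory proteins *Aco1* and *Ireb2*, the siderophore-binding lipocalin *Lcn2*, the ferroxidase *Cp*, and the metallothioneins *Mt1* and *Mt2*. They are 9 of the 50615 genes of the count table, and all 9 were among the 17625 genes with enough counts to be tested.

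*Ncoa6* encodes a coactivator that nuclear receptors and other transcription factors recruit. The cells were grown for 6 days from bone marrow of C57BL/6 mice in M-CSF (20 ng/ml), which turns marrow precursors into macrophages. *Ncoa6*-sufficient BMDMs, which the labels call WT, came from *Ncoa6* fl/fl mice. *Ncoa6*-KO BMDMs came from *Ncoa6* fl/fl LysM CRE mice, so mice of both genotypes carried the floxed allele, and Cre was made from the lysozyme gene *Lyz2* in myeloid cells in general and not in macrophages alone. Cells of each genotype were left in medium alone, or were primed with LPS, a bacterial cell wall component, for 4 h (100 ng/ml) and then exposed for 2 h to crystals of monosodium urate (MSU, 200 µg/ml), the trigger of gout. LPS was not given without MSU, nor MSU without LPS, so their effects cannot be told apart. Each of the 4 groups had 2 libraries, made from different mice, so every p-value below rests on 2 libraries a group. Unless stated otherwise, the spread behind a p-value was estimated from the libraries of all 4 groups together, and not from the compared groups alone.

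Macrophages take up iron bound to transferrin through the transferrin receptor, store it in ferritin, a shell of heavy and light chains, and recycle the iron of aged red cells. Iron regulatory proteins bind hairpins called iron-responsive elements (IREs) in mRNAs when cellular iron is low: a hairpin at the 5′ end of the mRNA then holds back translation, as in ferritin, and hairpins at the 3′ end protect the mRNA from decay, as in the transferrin receptor. During infection and inflammation macrophages are known to hold iron back from microbes, and metallothioneins are small cysteine-rich proteins that bind zinc and copper and whose transcription responds to metal through the factor MTF1.

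The libraries held between 25281955 and 33673552 counts. *Ncoa6* was lower in every *Ncoa6*-KO library, at 784 and 622 normalized counts in medium alone against 1515 and 1405 in *Ncoa6*-sufficient BMDMs, and at 563 and 526 after LPS + MSU against 1297 and 1173 (log2 fold change -1.05, adjusted p = 0.00236, and -1.18, adjusted p = 0.00189, edgeR). In the paper's scheme the loxP sites flank only part of *Ncoa6*, so counts over the whole gene can include reads from the exons left in place. They do not measure how complete the deletion was. Normalized counts are counts scaled to a common library size with TMM factors, which ran from 0.766 to 1.29. All 10 macrophage markers listed were detected in every group. Their summed CPM (counts scaled to a common total) was 17400 to 20000 in *Ncoa6*-sufficient and 11700 to 13200 in *Ncoa6*-KO libraries in medium alone, and 14100 to 15400 and 10700 to 11200 after LPS + MSU. *Lyz2*, which is on that list and holds the Cre insertion, was at 111990 to 129380 normalized counts in the 4 *Ncoa6*-KO libraries and at 209890 to 272100 in the others. *Lyz2* made up a large part of the macrophage sum, so that sum leans on this gene and does not describe the markers as a set. *Fcgr1* was also lower in *Ncoa6*-KO BMDMs in medium alone and after LPS + MSU (log2 -2.05 and -1.38, edgeR adjusted p = 0.0115 and 0.0353). *Cd14* was lower in medium alone (-0.78, adjusted p = 0.0298) and *Itgam* after LPS + MSU (-0.51, adjusted p = 0.0412). The remaining macrophage markers did not pass between genotypes. The part of these differences in the results below was not tested. Summed markers of other cells moved with culture condition in both genotypes: endothelial markers were at 16 to 30.3 CPM in medium alone and 86.6 to 186 after LPS + MSU, dendritic at 0.804 to 1.1 and 3.84 to 6.47, and B cell markers at 15.1 to 25.5 and 2.42 to 6.07. Kdr, 1 of the 5 endothelial markers listed, went from between 346 and 674 to between 2965 and 6679 normalized counts. It made up most of the endothelial sum under both conditions, so that sum describes mainly this gene and not the markers as a set. Stromal markers were at 6.38 to 25.7 CPM and T and NK cell markers at most at 0.109 in all libraries, and the part of these cells in the results below was not tested. In bulk RNA, fewer cells of a type and less RNA per cell cannot be told apart.

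The IREs of the ferritin and transferrin receptor mRNAs are shown first, because the members of this pathway are known for them. A pattern of an unpaired C, 5 bases, the loop CAGTGN and 5 bases, in which at least 4 of the 5 flanking bases on each side pair, was searched in GENCODE transcripts of GRCm38. It was present in 10.69% of 21901 protein-coding genes, and in 1.34% with all 5 pairs, so a match describes these letters and does not show a working element. The 30 bases around each match with all 5 pairs in a member are given 5′ to 3′ on the transcript's strand, with the loop in capitals.
*Fth1*, 5′ UTR (chr19:9982732-9982761, + strand): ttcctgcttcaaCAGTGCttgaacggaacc
*Ftl1*, 5′ UTR (chr7:45459778-45459807, - strand): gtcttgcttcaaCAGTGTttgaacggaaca
*Tfrc*, 3′ UTR (chr16:32631219-32631248, + strand): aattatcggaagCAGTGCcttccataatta
*Tfrc*, 3′ UTR (chr16:32631598-32631627, + strand): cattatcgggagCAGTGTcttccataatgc
*Tfrc*, 3′ UTR (chr16:32631663-32631692, + strand): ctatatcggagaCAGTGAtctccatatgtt
*Tfrc*, 3′ UTR (chr16:32631710-32631739, + strand): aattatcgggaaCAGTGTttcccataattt
The ferritin genes held 1 match each, in the 5′ UTR, and *Tfrc* held 4 in its 3′ UTR. *Tfrc* was the 1 gene of all those searched with at least 4 such matches with all 5 pairs in 1 transcript. *Lcn2* held a match with 4 pairs within its coding sequence, and *Aco1*, *Ireb2*, *Cp*, *Mt1* and *Mt2* held none.

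Between genotypes, the transferrin receptor was the member that differed under both culture conditions, and *Cp* differed after LPS + MSU. *Tfrc* was higher in *Ncoa6*-KO BMDMs by 1.60-fold in medium alone and by 1.46-fold after LPS + MSU, and *Cp* was lower by 1.77-fold after LPS + MSU. In medium alone 1 of the 9 members passed an adjusted p of 0.05, against 1.88% of all genes tested (0.573% higher, 1.3% lower), and after LPS + MSU 2 of 9 passed, against 3.59% (1.96% higher, 1.63% lower). The median log2 fold change of the members was 0.028 in medium alone, where that of all genes was -0.032, and 0.16 after LPS + MSU, where that of all genes was 0.00039. With so few members, these counts are a description of each gene and not of the list.

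Between culture conditions most members differed in both genotypes, as most genes did. In *Ncoa6*-sufficient BMDMs 8 of 9 members passed, against 55.2% of all genes (24.7% higher, 30.5% lower), with *Fth1*, *Ireb2*, *Lcn2* and *Cp* higher and *Ftl1*, *Tfrc*, *Aco1* and *Mt1* lower after LPS + MSU. In *Ncoa6*-KO BMDMs 7 of 9 passed, against 53.1% (25.2% higher, 27.9% lower), with *Fth1*, *Lcn2*, *Cp* and *Mt2* higher and *Tfrc*, *Aco1* and *Mt1* lower. These directions hold for TMM scaling, which centres the bulk of genes. When libraries were scaled by their total counts instead, the median log2 fold change of all genes moved from -0.116 to -0.778 in *Ncoa6*-sufficient and from -0.073 to -0.705 in *Ncoa6*-KO BMDMs, a shift of -0.662 and -0.632, and *Fth1*, *Ireb2* and *Mt2* then had values below 0 in both genotypes. The comparisons between genotypes moved by 0.032 and 0.073 at most.

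**Figure D1:**
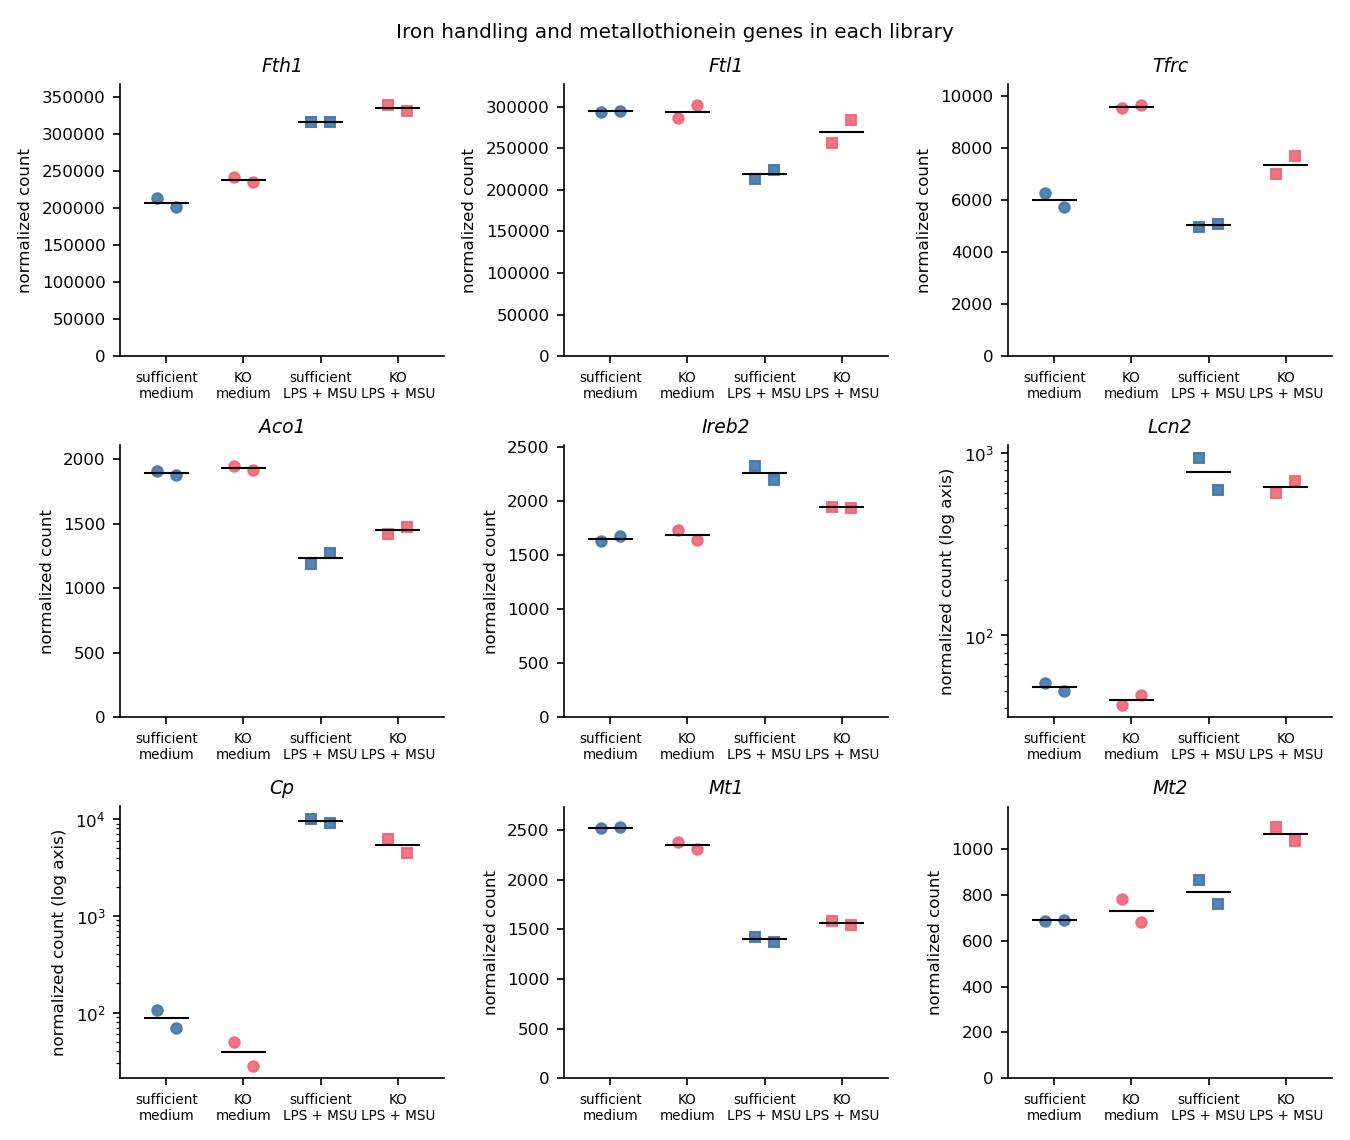
Normalized counts (y axis, linear from 0, and a log axis for *Lcn2* and *Cp*) of the 9 members in each of the 8 libraries, with 1 panel a gene; blue marks *Ncoa6*-sufficient and red *Ncoa6*-KO BMDMs, circles medium alone and squares LPS + MSU, and a black line the mean of the 2 libraries of a group. *Tfrc* was higher in both *Ncoa6*-KO libraries under either condition, and *Cp* rose from at most 106.6 to at least 4472 normalized counts after LPS + MSU.

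*Fth1* (ENSMUSG00000024661, GRCm38 chr19:9980598-9985098, + strand) encodes the ferritin heavy chain, which oxidizes iron as it enters the shell. It had 214076 and 200908 normalized counts in *Ncoa6*-sufficient BMDMs in medium alone, and 316774 and 316181 after LPS + MSU. The *Ncoa6*-KO libraries had 242309 and 234700 in medium alone, and 339733 and 331228 after LPS + MSU. Both libraries after LPS + MSU exceeded both in medium alone in each genotype. On the TMM scale *Fth1* was 1.53-fold higher after LPS + MSU in *Ncoa6*-sufficient (log2 0.61 ± 0.129 SE, edgeR adjusted p = 0.00183) and 1.41-fold higher in *Ncoa6*-KO BMDMs (0.49 ± 0.128, adjusted p = 0.00721), whereas with library totals the log2 values were -0.062 and -0.14. The call in *Ncoa6*-KO BMDMs was lost without their library 1 after LPS + MSU (0.47, adjusted p = 0.0542). As a share of all counts *Fth1* was at 0.876% of counts in medium alone and 0.839% after LPS + MSU in *Ncoa6*-sufficient and at 1.03% and 0.935% in *Ncoa6*-KO BMDMs. The *Ncoa6*-KO libraries lay above the *Ncoa6*-sufficient ones under both conditions without passing the test, by a log2 of 0.20 in medium alone (95% interval -0.082 to 0.48, adjusted p = 0.592) and of 0.084 after LPS + MSU (-0.20 to 0.37, adjusted p = 0.801).

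*Ftl1* (ENSMUSG00000050708, chr7:45457944-45459884, - strand) encodes the ferritin light chain, which helps the iron core form. It had 293981 and 294784 normalized counts in *Ncoa6*-sufficient BMDMs in medium alone and 213126 and 224134 after LPS + MSU. The *Ncoa6*-KO libraries had 285828 and 302362 in medium alone and 256102 and 283885 after LPS + MSU. The *Ncoa6*-sufficient libraries separated by culture condition, and the highest *Ncoa6*-KO library after LPS + MSU came close to the lowest in medium. *Ftl1* was 1.35-fold lower after LPS + MSU in *Ncoa6*-sufficient BMDMs (log2 -0.43 ± 0.132, adjusted p = 0.0168), a call lost with DESeq2's size factors (-0.32, adjusted p = 0.0615) and without any 1 of the 4 *Ncoa6*-sufficient libraries or *Ncoa6*-KO library 1 after LPS + MSU (adjusted p = 0.0508 to 0.135). In *Ncoa6*-KO BMDMs its log2 value was -0.12 (95% interval -0.41 to 0.17, adjusted p = 0.462), and the difference between genotypes in this response was not established (interaction 0.31 ± 0.186, adjusted p = 0.897). Between genotypes its log2 value was 0.30 after LPS + MSU (0.013 to 0.60, adjusted p = 0.263), and -0.0014 in medium alone (-0.29 to 0.29, adjusted p = 1).

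*Ftl1* counts carry an uncertainty from near-identical copies in the genome. The annotation holds 7 retrocopies of *Ftl1* with at least 90% identity over at least 50% of the mRNA, of which 5 had counts. *Ftl1-ps1*, 99.6% identical over 94% of the mRNA, had most of their counts. These copies held 1.31% to 1.49% of the counts of *Ftl1* and copies together in each library, and those of *Fth1* at most 0.00374%. Gm47428, an antisense gene elsewhere in the genome that is 99.7% identical to *Ftl1* over 341 bases, had 1.22% to 1.79% of the counts of both, and *Gm10252*, which shares 355 exonic bases with *Ftl1* on the opposite strand, 1.62% to 1.92%. All 9 genes with at least 90% identity over 300 or more bases together held 4.24% to 4.87%. Adding either set to each ferritin gene changed no call of a ferritin gene. How the counting treated strand is not given in the sources used here, so such reads cannot be assigned to either gene.

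The balance between the ferritin chains differed with culture condition in every library. Per kilobase of exon, *Ftl1* was 3.56 and 3.80 times as abundant as *Fth1* in *Ncoa6*-sufficient BMDMs in medium alone and 1.74 and 1.83 times after LPS + MSU. In *Ncoa6*-KO BMDMs the ratio was 3.05 and 3.33 in medium alone and 1.95 and 2.22 after LPS + MSU. A ratio within a library does not depend on how libraries are scaled, but it does depend on the exon lengths used. In counts, not divided by length, it was 1.37 and 1.47 in *Ncoa6*-sufficient BMDMs in medium alone and 0.673 and 0.709 after LPS + MSU. In *Ncoa6*-KO BMDMs it was 1.18 and 1.29 in medium alone and 0.754 and 0.857 after LPS + MSU. Which chain was the more abundant after LPS + MSU therefore rests on the lengths. The conditions did not overlap, and the *Ncoa6*-KO values lay between the 2 sets of *Ncoa6*-sufficient values under both conditions. With 2 libraries against 2 no exact permutation test could reach a p below 0.333, and the ratios are given without one.

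**Figure D2:**
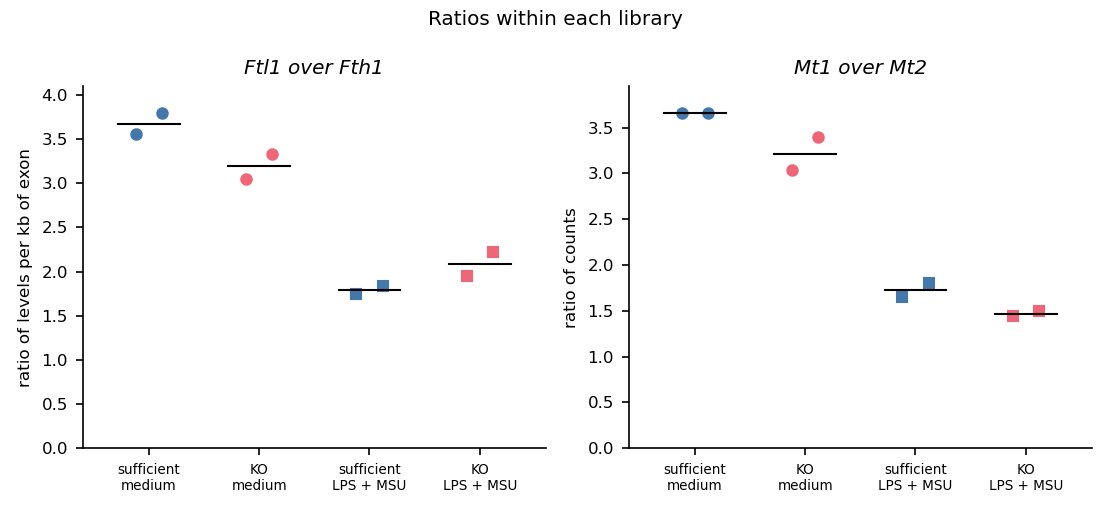
Ratio of *Ftl1* to *Fth1* per kilobase of exon (left) and of *Mt1* to *Mt2* in counts (right) in each library, by group, on linear y axes; points are libraries and lines the mean of 2. Both ratios were lower in every library after LPS + MSU than in any library in medium alone.

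*Tfrc* (ENSMUSG00000022797, chr16:32608920-32632794, + strand) encodes the receptor that takes up transferrin-bound iron. In medium alone it had 6256 and 5726 normalized counts in *Ncoa6*-sufficient and 9521 and 9668 in *Ncoa6*-KO BMDMs. After LPS + MSU it had 4971 and 5086 in *Ncoa6*-sufficient and 7014 and 7712 in *Ncoa6*-KO BMDMs. The genotypes did not overlap under either condition, and on the TMM scale the stimulated *Ncoa6*-KO libraries lay above the unstimulated *Ncoa6*-sufficient ones. As CPM per kilobase of exon, which follows library totals, that order was the reverse, at 33.2 ± 2.89 against 40.9 ± 2.20 (SD, n = 2). The knockout effect was a log2 of 0.68 ± 0.0975 in medium alone (95% interval 0.46 to 0.89, adjusted p = 0.00814) and of 0.55 ± 0.0980 after LPS + MSU (0.33 to 0.77, adjusted p = 0.0147). The effects under the 2 conditions differed by -0.13 (-0.43 to 0.17, adjusted p = 0.949). The call in medium alone was lost when either *Ncoa6*-sufficient library in medium was left out (log2 0.75 and 0.62, adjusted p = 0.0773 and 0.0766), as were most calls of that comparison, which went from 331 genes to 22 and 81. After LPS + MSU it was lost without *Ncoa6*-sufficient library 1 or 2 or *Ncoa6*-KO library 2 of that condition (log2 0.48 to 0.55, adjusted p = 0.0615 to 0.151). Erythroid precursors carry much of this receptor, and 1 of 10 erythroid markers passed the count filter, and their summed level was 0.0396 to 0.256 CPM in all libraries.

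Within each genotype *Tfrc* was lower after LPS + MSU. It fell by 0.38 on the log2 scale in *Ncoa6*-KO BMDMs (SE 0.0973, adjusted p = 0.00629), and the call was lost without *Ncoa6*-KO library 1 after LPS + MSU (-0.32, adjusted p = 0.0592). In *Ncoa6*-sufficient BMDMs it fell 1.19-fold (log2 -0.25 ± 0.0976, adjusted p = 0.0468), and that call was lost with DESeq2 (-0.14, adjusted p = 0.261), with DESeq2's size factors (-0.14, adjusted p = 0.239), with filterByExpr, with only the libraries compared, and without any 1 of the 6 libraries other than those of *Ncoa6*-KO BMDMs in medium (adjusted p = 0.0587 to 0.259).

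**Figure D3:**
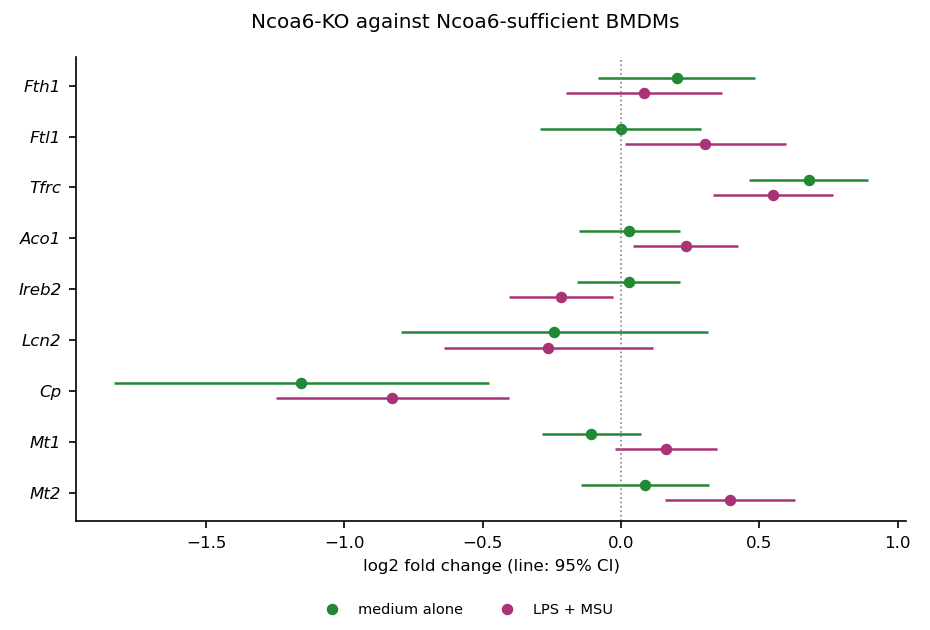
Log2 fold change of each member in *Ncoa6*-KO against *Ncoa6*-sufficient BMDMs (x axis) in medium alone (green) and after LPS + MSU (purple); bars are 95% intervals from the edgeR fit with 2 libraries a group, and the line marks 0. The intervals of *Tfrc* lay above 0 and those of *Cp* below 0 under both conditions, and of the intervals that leave out 0 only these passed an adjusted p of 0.05, *Cp* in medium alone excepted.

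*Aco1* (ENSMUSG00000028405, chr4:40143081-40198338, + strand) encodes cytosolic aconitase, which becomes iron regulatory protein 1 when it loses its iron-sulfur cluster. It had 1908 and 1880 normalized counts in medium alone and 1187 and 1275 after LPS + MSU in *Ncoa6*-sufficient BMDMs, and 1950 and 1920, and 1419 and 1477, in *Ncoa6*-KO BMDMs. It was lower after LPS + MSU in every library, by 1.54-fold in *Ncoa6*-sufficient (log2 -0.62 ± 0.0849, adjusted p = 7.58e-05) and by 1.34-fold in *Ncoa6*-KO BMDMs (-0.42 ± 0.0842, adjusted p = 0.00143). Between genotypes *Aco1* differed by a log2 of 0.031 in medium alone (95% interval -0.15 to 0.21, adjusted p = 0.940) and of 0.23 after LPS + MSU (0.044 to 0.42, adjusted p = 0.185).

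*Ireb2* (ENSMUSG00000032293, chr9:54863789-54912530, + strand) encodes iron regulatory protein 2, which is degraded when iron is plentiful. It had 1632 and 1676 normalized counts in medium alone and 2332 and 2195 after LPS + MSU in *Ncoa6*-sufficient BMDMs, and 1733 and 1639, and 1950 and 1942, in *Ncoa6*-KO BMDMs. The stimulated libraries were above the unstimulated ones in each genotype, with the stimulated *Ncoa6*-KO pair between the 2 *Ncoa6*-sufficient pairs. On the TMM scale it was 1.37-fold higher after LPS + MSU in *Ncoa6*-sufficient BMDMs (log2 0.45 ± 0.0847, adjusted p = 0.000793), and in *Ncoa6*-KO BMDMs its log2 value was 0.21 ± 0.0847 (adjusted p = 0.0607, 0.0425 with DESeq2, and 0.0224 to 0.227 over the alternatives with the same direction). With library totals the direction turned and the fall passed in both genotypes, at -0.22 (adjusted p = 0.0339) and -0.43 (adjusted p = 0.000739). Whether the response differed between genotypes was not settled at this number of libraries (interaction -0.25, 95% interval -0.51 to 0.018, adjusted p = 0.853). After LPS + MSU *Ireb2* was at a log2 of -0.22 in *Ncoa6*-KO against *Ncoa6*-sufficient BMDMs (-0.41 to -0.030, adjusted p = 0.213), and in medium alone at 0.028 (-0.16 to 0.21, adjusted p = 0.948) with overlapping libraries.

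The mRNAs of the iron regulatory proteins therefore went in opposite directions after LPS + MSU on the TMM scale, *Aco1* down in both genotypes and *Ireb2* up in *Ncoa6*-sufficient BMDMs. With library totals both were below 0, and *Aco1* was still the lower of the pair, at -1.29 and -1.05.

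*Lcn2* (ENSMUSG00000026822, chr2:32384633-32388252, - strand) encodes lipocalin 2, which binds bacterial siderophores and so keeps iron from bacteria. It had 54.8 and 49.9 normalized counts in medium alone in *Ncoa6*-sufficient and 41.7 and 47.4 in *Ncoa6*-KO BMDMs, from 54 to 73 counts a library. After LPS + MSU it had 935 and 624 in *Ncoa6*-sufficient and 601 and 698 in *Ncoa6*-KO BMDMs. All 4 stimulated libraries were more than 600 and all 4 unstimulated ones under 55, and after LPS + MSU the genotypes overlapped. *Lcn2* rose 14.8-fold in *Ncoa6*-sufficient (log2 3.89 ± 0.209, adjusted p = 4.01e-08) and 14.6-fold in *Ncoa6*-KO BMDMs (3.87 ± 0.214, adjusted p = 5.14e-08), and by 3.22 and 3.24 on the log2 scale with library totals. The difference between these responses was -0.022 (95% interval -0.71 to 0.67, adjusted p = 1.00), and the genotypes differed by -0.24 in medium alone (-0.80 to 0.31, adjusted p = 0.776) and by -0.26 after LPS + MSU (-0.64 to 0.12, adjusted p = 0.483). *Lcn2* is also abundant in neutrophils. Of 12 neutrophil markers 11 passed the count filter, and their summed level was 57.5 to 59.9 CPM in medium alone and 97.6 to 108 after LPS + MSU in *Ncoa6*-sufficient, and 46.6 to 51 and 58.9 to 75.9 in *Ncoa6*-KO libraries. *Ly6g* was at 0 in 7 of the 8 libraries, and the part of these markers in the *Lcn2* values was not tested.

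*Cp* (ENSMUSG00000003617, chr3:19957054-20009145, + strand) encodes ceruloplasmin, the copper-containing enzyme that oxidizes iron as it leaves cells. In *Ncoa6*-sufficient BMDMs it had 106.6 and 68.8 normalized counts in medium alone and 10055 and 9036 after LPS + MSU. The *Ncoa6*-KO libraries had 49.4 and 28.1 in medium alone and 6286 and 4472 after LPS + MSU. Both *Ncoa6*-KO libraries were lower than both *Ncoa6*-sufficient ones under either condition. Of the members, *Cp* differed most after LPS + MSU, by 107.9-fold in *Ncoa6*-sufficient (log2 6.75 ± 0.258, adjusted p = 3.28e-09) and by 135-fold in *Ncoa6*-KO BMDMs (7.08 ± 0.274, adjusted p = 3.78e-09). The folds rest on low counts in medium alone, 142 and 80 in *Ncoa6*-sufficient and 71 and 32 in *Ncoa6*-KO libraries, and they did not differ between genotypes by the test (interaction 0.33, 95% interval -0.47 to 1.13, adjusted p = 0.952).

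After LPS + MSU *Cp* was 1.77-fold lower in *Ncoa6*-KO BMDMs (log2 -0.83 ± 0.191, 95% interval -1.25 to -0.41, adjusted p = 0.0408). The call was close to the threshold: it was lost with DESeq2 (-0.86, adjusted p = 0.125) and when any 1 of 5 libraries was left out, namely either *Ncoa6*-sufficient library of either condition or *Ncoa6*-KO library 2 after LPS + MSU (log2 -0.91 to -0.61, adjusted p = 0.0554 to 0.310). In medium alone the log2 value was -1.16 ± 0.308 (-1.83 to -0.48, adjusted p = 0.0972). It passed with no filter on low counts (-1.16, adjusted p = 4.09e-08) and with a replicate block across all groups or within each genotype (-1.16 and -1.05, adjusted p = 0.00214 and 2.92e-04), in a range of 4.09e-08 to 0.652 over all alternatives. *Hps3*, on the opposite strand, shares 108 exonic bases with *Cp* and had 1485 to 1927 counts in all libraries. It made up 92.4% to 97.9% of the counts of both genes in medium alone and 19.5% to 34.8% after LPS + MSU, and the part of shared reads in the *Cp* values was not tested.

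**Figure D4:**
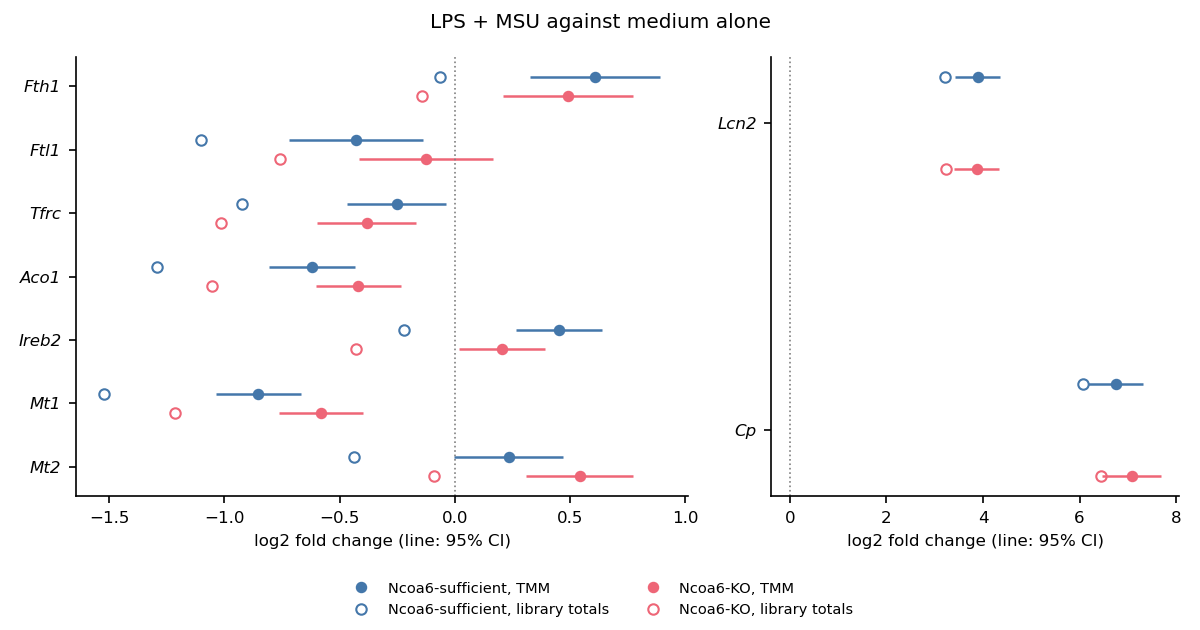
Log2 fold change of each member after LPS + MSU against medium alone (x axis) in *Ncoa6*-sufficient (blue) and *Ncoa6*-KO BMDMs (red), with *Lcn2* and *Cp* in a panel of their own scale; filled points with 95% intervals are from the edgeR fit with TMM scaling, and open points from library totals. The median of all genes was lower by 0.662 and 0.632 for open points, on which *Fth1*, *Ireb2* and *Mt2* lay below 0 in both genotypes and *Lcn2* and *Cp* far above it.

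*Mt1* (ENSMUSG00000031765, chr8:94179082-94180327, + strand) and *Mt2* (ENSMUSG00000031762, chr8:94172664-94173568, + strand) are neighbours that encode closely related metallothioneins. *Mt1* had 2516 and 2533 normalized counts in medium alone and 1424 and 1372 after LPS + MSU in *Ncoa6*-sufficient BMDMs, and 2380 and 2308, and 1585 and 1546, in *Ncoa6*-KO BMDMs. It was lower in all stimulated libraries, by 1.81-fold in *Ncoa6*-sufficient (log2 -0.85 ± 0.0831, adjusted p = 4.88e-06) and by 1.50-fold in *Ncoa6*-KO BMDMs (-0.58 ± 0.0826, adjusted p = 1.10e-04). The genotypes changed order between the conditions: *Mt1* was at a log2 of -0.11 in *Ncoa6*-KO BMDMs in medium alone (95% interval -0.29 to 0.071, adjusted p = 0.667) and of 0.16 after LPS + MSU (-0.022 to 0.35, adjusted p = 0.357). The difference, 0.27 (0.013 to 0.53), had an adjusted p = 0.811 by edgeR and so did not pass.

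*Mt2* had 687 and 692 normalized counts in medium alone and 863 and 760 after LPS + MSU in *Ncoa6*-sufficient BMDMs. The *Ncoa6*-KO libraries had 784 and 680 in medium alone and 1098 and 1035 after LPS + MSU. The stimulated *Ncoa6*-KO libraries stood above the other 6. On the TMM scale *Mt2* was 1.46-fold higher after LPS + MSU in *Ncoa6*-KO BMDMs (log2 0.54 ± 0.105, adjusted p = 0.00111), and in *Ncoa6*-sufficient BMDMs its log2 value was 0.23 ± 0.107 (adjusted p = 0.0850, 0.0381 with DESeq2, and 0.0179 to 0.256 over the alternatives with the same direction). With library totals both fell below 0, to -0.092 in *Ncoa6*-KO BMDMs (adjusted p = 0.434) and to -0.44 in *Ncoa6*-sufficient BMDMs, where the fall passed the test (adjusted p = 0.00227). After LPS + MSU *Mt2* was at a log2 of 0.39 in *Ncoa6*-KO against *Ncoa6*-sufficient BMDMs (0.16 to 0.63, adjusted p = 0.0753), and it passed with no filter on low counts (adjusted p = 0.0233) and with library totals (0.47, adjusted p = 0.0297), in a range of 0.00826 to 0.285 over all alternatives. In medium alone it was at 0.087 (-0.14 to 0.32, adjusted p = 0.821) with overlapping libraries. *Gm45774*, an antisense gene that shares 432 exonic bases with *Mt2*, had 1.2% to 4.1% of the counts of both.

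The ratio of *Mt1* to *Mt2* counts, which does not depend on the scaling, was lower in every library after LPS + MSU than in any in medium alone. It was 3.66 in both *Ncoa6*-sufficient libraries in medium alone and 1.65 and 1.80 after LPS + MSU, and 3.03 and 3.40, and 1.44 and 1.49, in *Ncoa6*-KO BMDMs. The *Ncoa6*-KO libraries were below the *Ncoa6*-sufficient ones under both conditions.

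The promoters of *Mt1* and *Mt2* are shown for the metal response elements (MREs) through which MTF1 acts, since the genes moved apart although they are neighbours. The cores TGCGCNC and TGCACNC were searched on both strands in the RefSeq GRCm38.p6 windows of 300 bases, 250 before to 50 after each start. Of 32851 promoters 15.4% held the former, 12.6% the latter, 25.7% at least 1 of either and 0.52% at least 4. Matches are given on the gene's strand, with the core or its complement in capitals. Distances are from the RefSeq start of each window, which is not the GENCODE gene start given above. The *Mt2* window ran from chr8:94172368 to 94172667, and the GENCODE gene began at 94172664. The *Mt2* match past the window's start therefore lay before the GENCODE start.
*Mt2*, 223 bases before the start (chr8:94172387-94172409): atcgcctcTGCACCCggcccctc
*Mt2*, 128 bases before (chr8:94172482-94172504): agacccttTGCGCTCagctcctt
*Mt2*, 50 bases before, opposite strand (chr8:94172560-94172582): gggagggcGTGTGCAggctctgt
*Mt2*, past the start, opposite strand (chr8:94172614-94172636): ttcgggtcGTGCGCAggcccagg
*Mt1*, 23 bases before (chr8:94179058-94179080): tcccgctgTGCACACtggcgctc
*Mt1*, past the start (chr8:94179083-94179105): gggagctcTGCACTCcgcccgaa
*Mt1*, past the start (chr8:94179101-94179123): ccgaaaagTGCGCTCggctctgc
*Mt2* held 4 matches and *Mt1* held 3. The *Mt2* window also held the antioxidant response element core TGACNNNGC, found in 12.4% of promoters, 79 bases before its start, and the *Mt1* window did not. The *Mt1* window ended at chr8:94179138, and sequence past the end of a window was not searched. *Mt1* has 3 annotated transcripts, and windows around other starts were not searched either. The contrast between the genes therefore holds for these windows only. Of the other members *Tfrc* held 2 overlapping TGCGCNC matches and *Aco1* held 1. A match is a description of these windows and neither a site nor a cause.

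Levels of different genes are given as CPM per kilobase of exon. *Ftl1* was the highest in every group, at 9277 ± 100.5 (SD, n = 2) in medium alone in *Ncoa6*-sufficient BMDMs, and *Fth1* was next, at 2525 ± 90.9. *Mt1* (85.6 ± 1.18), *Mt2* (49.6 ± 0.694), *Tfrc* (40.9 ± 2.20), *Aco1* (17.8 ± 0.0237) and *Ireb2* (7.37 ± 0.204) followed in that group, and *Lcn2* (0.842 ± 0.0482) and *Cp* (0.387 ± 0.114) came last. Each of these neighbours was further apart than the spread between its libraries. In *Ncoa6*-KO BMDMs in medium alone *Tfrc* (67.1 ± 1.94) stood above *Mt2* (53.8 ± 4.46).

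After LPS + MSU the order changed for *Cp*, *Lcn2* and the metallothioneins. In *Ncoa6*-sufficient BMDMs *Mt2* (36.6 ± 2.49) stood above *Mt1* (29.7 ± 0.145), and *Cp* (26.4 ± 1.43) above *Tfrc* (21.6 ± 0.817). *Lcn2* (7.86 ± 2.05), *Aco1* (7.27 ± 0.524) and *Ireb2* (6.33 ± 0.133) came last and did not differ beyond the spread of *Lcn2*. In *Ncoa6*-KO BMDMs the order was *Mt2* (50.6 ± 1.09), *Mt1* (35.0 ± 0.0775), *Tfrc* (33.2 ± 2.89), *Cp* (15.6 ± 3.43), *Aco1* (8.98 ± 0.434), *Lcn2* (6.91 ± 0.867) and *Ireb2* (5.72 ± 0.0976), in which *Mt1* and *Tfrc* were within the spread of *Tfrc*. *Lcn2* stood above *Ireb2* there, and below it in medium alone (0.736 against 7.69). Lengths here are unions of all exons, and with the longest transcript the mean level over the 8 libraries of *Fth1* went from 2654 to 4464 and that of *Ftl1* from 7182 to 9942. That of *Cp* went from 10.7 to 22.3 and that of *Aco1* from 13.2 to 15.5, so *Cp* passed *Aco1*. The orders within groups above are for unions of exons only, and those of genes at similar levels can change with the length used.

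Other genes of iron and heme handling were taken from a list of 61, of which 54 were tested. Between genotypes 1 of 54 (1.85%) passed in medium alone, where 1.88% of all genes did, and 5 of 54 (9.26%) after LPS + MSU, where 3.59% did. *Trf*, which encodes transferrin, the ligand of the *Tfrc* product, was lower under both conditions. It had 3666 and 2914 normalized counts in *Ncoa6*-sufficient against 1776 and 1085 in *Ncoa6*-KO BMDMs in medium alone, and 3414 and 3125 against 1517 and 1084 after LPS + MSU. These values did not overlap and were 2.30-fold (log2 -1.20 ± 0.215, adjusted p = 0.0229) and 2.51-fold lower (-1.33 ± 0.220, adjusted p = 0.0111). The call in medium alone was lost without either *Ncoa6*-sufficient library or *Ncoa6*-KO library 2 in medium (adjusted p = 0.066 to 0.290), and that after LPS + MSU without *Ncoa6*-sufficient library 1 or *Ncoa6*-KO library 2 of that condition (0.0916 to 0.123).

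After LPS + MSU 3 genes of the list were higher in *Ncoa6*-KO BMDMs. *Slc40a1* encodes ferroportin, the iron exporter, whose mRNA also held an IRE match in its 5′ UTR with all 5 pairs. It had 669 and 680 normalized counts in *Ncoa6*-sufficient and 1138 and 1595 in *Ncoa6*-KO BMDMs, which is 2.02-fold higher (log2 1.02 ± 0.163, adjusted p = 0.0103). *Slc48a1*, which carries heme out of the lysosome after red cell uptake, was 1.49-fold higher (adjusted p = 0.0296), and *Alad*, an enzyme of heme synthesis, 1.50-fold higher (adjusted p = 0.0413). *Abcg2*, an exporter of porphyrins and drugs, was 1.47-fold lower (409 and 398 against 284 and 266 normalized counts, adjusted p = 0.0294). The call of *Slc40a1* was lost without *Ncoa6*-sufficient library 1 or *Ncoa6*-KO library 2 after LPS + MSU (adjusted p = 0.092 to 0.102). Those of *Slc48a1*, *Alad* and *Abcg2* were lost without any 1 of the 4 *Ncoa6*-sufficient libraries or *Ncoa6*-KO library 2 after LPS + MSU. Those of *Alad* and *Abcg2* were also lost without *Ncoa6*-KO library 1 after LPS + MSU. That of *Alad* was lost with DESeq2 as well, among other alternatives. Over 17 alternatives the call was kept in 11 for *Slc48a1*, in 6 for *Alad* and in 9 for *Abcg2*.

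**Figure D5:**
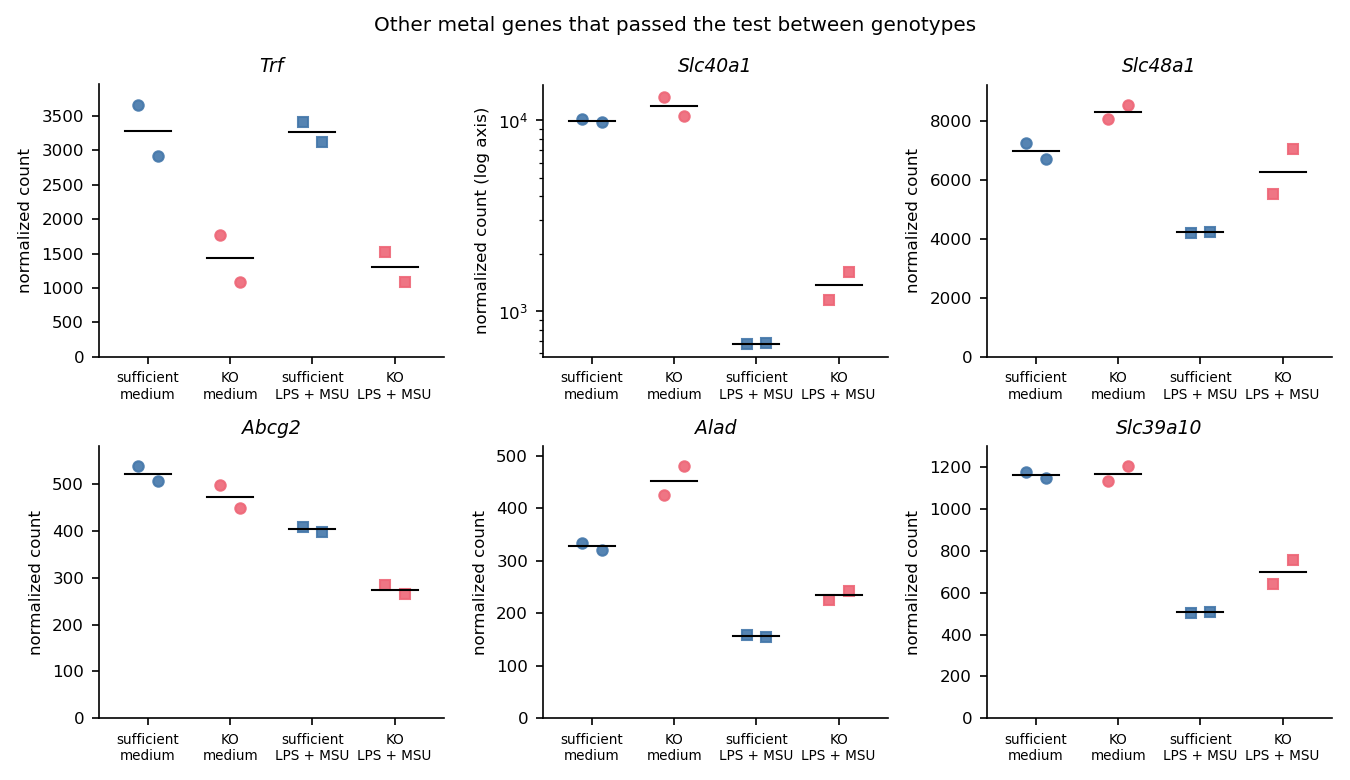
Normalized counts by library (y axis, linear from 0, and a log axis for *Slc40a1*) of the 6 other genes of the iron, heme and zinc lists that differed between genotypes; blue marks *Ncoa6*-sufficient and red *Ncoa6*-KO BMDMs, circles medium alone, squares LPS + MSU, and lines the mean of 2 libraries. *Trf* was lower in all 4 *Ncoa6*-KO libraries, and *Slc40a1* fell from at least 9756 to at most 1595 normalized counts after LPS + MSU.

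After LPS + MSU against medium, 38 of the 54 genes (70.4%) passed in *Ncoa6*-sufficient BMDMs, 15 up and 23 down, and 36 (66.7%) in *Ncoa6*-KO BMDMs, 15 up and 21 down, where 55.2% and 53.1% of all genes passed. With library totals the split was 6 up and 37 down, and 7 up and 35 down. On the TMM scale 4 of the 17 genes of mitochondrial iron, heme and iron-sulfur cluster synthesis were up and 10 down in *Ncoa6*-sufficient, and 4 up and 8 down in *Ncoa6*-KO BMDMs, where 30.5% and 27.9% of all genes were down. Of the 13 genes of heme uptake, breakdown and transport 3 were up and 7 down in both genotypes. *Slc40a1* fell 14.7-fold in *Ncoa6*-sufficient (log2 -3.88, adjusted p = 1.07e-08) and 8.71-fold in *Ncoa6*-KO BMDMs (-3.12, adjusted p = 3.70e-08). *Flvcr1*, a heme exporter, fell by 2.38 and 2.39 on the log2 scale, and *Cd163*, the receptor for hemoglobin bound to haptoglobin, by 1.96 and 2.60. *Slc11a2*, the ferrous iron transporter DMT1, rose 4.45-fold and 4.48-fold, from 2346 to 2830 to between 11218 and 12801 normalized counts. The mitochondrial iron importers *Slc25a37* and *Slc25a28* rose by 1.59 and 1.32 on the log2 scale in *Ncoa6*-sufficient and by 1.76 and 1.16 in *Ncoa6*-KO BMDMs.

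Of 33 genes of zinc and copper transport and metal response 26 were tested. None passed between genotypes in medium alone by edgeR or DESeq2, where 1.88% of all genes did by edgeR. After LPS + MSU 1 passed (3.85%, where 3.59% of all genes did), *Slc39a10*, a zinc importer, which had 504 and 510 normalized counts in *Ncoa6*-sufficient and 644 and 755 in *Ncoa6*-KO BMDMs (log2 0.46 ± 0.105, adjusted p = 0.0380). This call was lost with DESeq2, and without any 1 of the 4 *Ncoa6*-sufficient libraries or *Ncoa6*-KO library 2 after LPS + MSU (adjusted p = 0.0762 to 0.304). After LPS + MSU against medium 15 passed in *Ncoa6*-sufficient (57.7%, 11 up and 4 down) and 18 in *Ncoa6*-KO BMDMs (69.2%, 12 up and 6 down), where 55.2% and 53.1% of all genes passed, and with library totals the split was 6 up and 14 down, and 9 up and 13 down. *Slc31a2*, a copper transporter, rose 8.05-fold and 8.88-fold. *Slc30a1*, the zinc exporter that MTF1 is known to induce, rose by 1.98 and 2.28 on the log2 scale, and *Slc31a1*, the main copper importer, by 1.35 and 0.95. *Slc39a10* fell by 1.20 and 0.74, *Slc30a5* by 0.97 and 0.87, and *Slc39a6* by 0.45 and 0.40, of which the fall of *Slc39a6* was lost without *Ncoa6*-sufficient library 2 in medium or 1 after LPS + MSU, and in *Ncoa6*-KO BMDMs without library 2 in medium or 1 after LPS + MSU (adjusted p = 0.0635 to 0.146). *Slc30a1* and *Mt1*, which both respond to zinc through MTF1 in textbook accounts, had opposite directions here under both scalings. *Mt2* had values above 0 on the TMM scale, as *Slc30a1* did (log2 0.23, which did not pass, and 0.54). With library totals *Mt2* was below 0 (-0.44 and -0.092). No gene named from either list changed direction with library totals.

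The knockout effects under the 2 culture conditions were not shown to differ for any member. By edgeR 0 of 9 members and 0 of 17625 genes passed in the interaction. With DESeq2 0 members and 43 genes passed, with limma-voom 0 and 0, with no filter on low counts 0 and 269, and with the replicate blocks 0 members and 86 and 444 genes. By edgeR 1 member, *Mt1*, and 1045 genes (5.93%) had an unadjusted p under 0.05. The smallest adjusted p of a member was 0.811. The 95% interval of the difference held 0 for every member but *Mt1*.

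The expression pattern over the 8 libraries was also compared with that of 11218 other genes, all at 50 or more normalized counts on average, by the root-mean-square difference of centred log2 values. The genes nearest to *Fth1* were *Plscr3* (0.04) and *Pigg* (0.045), with *Ftl1* at rank 4858 (0.432). Those nearest to *Ftl1* were *C1qtnf12* (0.033) and *Hmgxb4* (0.044). *Mt2* came at rank 7062 (0.565) for *Mt1*, whose nearest genes were *Sp1* (0.045) and *Phka2* (0.052), and *Mt2* itself was nearest to *Dnajb2* (0.082) and *Fam174a* (0.085). So neither the ferritin chains nor the metallothioneins were each other's neighbours in pattern. *Tfrc* was nearest to *Laptm4b* (0.077) and *Bace1* (0.092), *Aco1* to *Bloc1s2* (0.035) and *Cyhr1* (0.037), and *Ireb2* to *Prpf18* (0.037) and *Ap1g1* (0.038). *Lcn2* was nearest to *Gnb4* (0.162) and *Gm6904* (0.182), and *Cp* to *Gbp2* (0.171) and *Gm5970* (0.194).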

How the data were processed

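The authors deposited expected counts per gene, estimated by RSEM 1.3.3 after alignment with STAR 2.7.3a to GRCm38 (versions from the submitters' processing notes) from stranded mRNA libraries, without normalization. RSEM splits reads that fit several genes, which touches the ferritin copies. The strand setting of the counting is not given in the sources used here. Counts were rounded, genes whose 8 counts summed to less than 10 were dropped, and all groups entered 1 quasi-likelihood fit of edgeR 4.0.16 (TMM scaling, R 4.3.3, 4 residual degrees of freedom). p-values were adjusted by Benjamini-Hochberg over the 17625 genes tested, and a gene was called under 0.05. Intervals are 95%. The study's methods use DESeq2 for this table, and DESeq2 1.42.0 was an alternative here, as were limma-voom (limma 3.58.1), 2 filters, other scalings, a replicate term and leaving out each library. Scaling by library totals and summing all near-identical ferritin genes were added after the data were seen. The members, gene lists and the rule for other named genes (those called between genotypes, the 3 largest rises and falls of each list in *Ncoa6*-sufficient BMDMs, and the 2 genes nearest in pattern) were chosen with earlier results of these data known. Symbols and positions came from a GENCODE annotation of GRCm38, which gave 50295 genes a symbol. Ferritin copies were found with blastn 2.17.0 and sequence patterns by text search. The code was tested on simulated counts with known changes.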

Additional observations from a re-analysis of the deposited data

Results flagged for a closer look

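*Mt1* was lower in both *Ncoa6*-KO libraries than in both *Ncoa6*-sufficient libraries in medium alone and higher in both after LPS + MSU, which drew attention because every library moved with the order of its condition. The difference between the 2 knockout effects was 0.27 on the log2 scale (adjusted p = 0.811 by edgeR's interaction test), so it did not pass. It was under 0.05 before adjustment, as it was for 5.93% of all genes. Groups of 2 libraries are too small for a test of single libraries that stand apart.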

How the results depend on the processing

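Of 776 alternative values of members' log2 fold changes 697 kept their direction and their side of the threshold, 29 lost and 23 gained a call, and 27 changed sign. The causes were not tested.

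In medium alone the knockout comparison called 1 member, 1 other iron gene and 0 zinc and metal genes, against 2, 4 and 3 with no filter on low counts and 0 to 1, 0 to 1 and 0 to 0 when 1 library was left out. After LPS + MSU it called 2, 5 and 1, against 1 member and 0 zinc and metal genes with DESeq2, 8 and 3 with no filter (other iron, zinc and metal), 3 and 0 with limma-voom, and 2 and 0 with only the libraries compared. Leaving out 1 library gave 0 to 2, 0 to 6 and 0 to 1. The interaction called 1 other iron gene with no filter. In the responses to LPS + MSU, leaving out 1 library gave 6 to 8 and 5 to 7 members. Over all genes the share of calls that were higher was 44.8% and 47.5% in the responses, and 20.6% and 21.4% with library totals. In the knockout comparison after LPS + MSU it was 54.6%, 40.8% with DESeq2 and 68.8% with library totals. Over all genes the knockout comparisons called 331 and 632, and 1152 and 1611 with no filter.

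Libraries share replicate numbers, but nothing says that these mark the same mouse, and with 2 numbers the check is only a hint: the deviations of same-numbered libraries from their group means correlated at 0.283 and 0.353 between conditions within a genotype, and at 0.042 to 0.193 between genotypes. A replicate block across all groups gave 2 members, 4 other iron and 4 zinc and metal genes in medium alone and 9 other iron and 5 zinc and metal genes after LPS + MSU. A block within each genotype gave 2, 6 and 2 in medium alone and 5, 11 and 4 after LPS + MSU, and 3 other iron and 2 zinc and metal genes in the interaction. Over all genes these blocks also called more, 1023 and 1530 in medium alone and 1532 and 2000 after LPS + MSU. Under these blocks *Cp* passed in medium alone (log2 -1.16 and -1.05, adjusted p = 0.00214 and 2.92e-04) and *Mt2* after LPS + MSU (0.40 and 0.43, adjusted p = 0.0171 and 0.00826). *Ftl1* (0.26, adjusted p = 0.0201) and *Lcn2* (-0.58, adjusted p = 0.00523) passed after LPS + MSU in the latter block.

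Some signs changed. The knockout effect on *Ftl1* in medium alone (-0.0014) became 0.0166 with DESeq2's size factors and with DESeq2, 0.0055 with filterByExpr, 0.034 with library totals and 0.022 with only the libraries compared, and ran from -0.042 to 0.040 without 1 library. Without 1 library that of *Ireb2* ran from -0.012 to 0.069, that of *Mt2* from -0.020 to 0.19, and that of *Lcn2* after LPS + MSU from -0.54 to 0.047. The interaction of *Lcn2* (-0.022) became 0.0059 with limma-voom and 0.020 with library totals and ran from -0.34 to 0.25 without 1 library, and that of *Cp* from -0.032 to 0.82. With library totals the responses of *Fth1* (-0.062 and -0.14), *Ireb2* (-0.22 and -0.43) and *Mt2* (-0.44 and -0.092) were below 0, and those of *Ireb2* in both genotypes and of *Mt2* in *Ncoa6*-sufficient BMDMs passed in that direction. The call of *Ncoa6* in medium alone was lost without *Ncoa6*-sufficient library 1 in medium (-0.996, adjusted p = 0.0578). With the longest transcript the mean level per kilobase became 4464 for *Fth1*, 9942 for *Ftl1*, 11.1 for *Ireb2* and 7.80 for *Lcn2*. Depth limits *Cp* and *Lcn2* in medium alone, where a library held 32 to 142 counts of them.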
